A study of Homo sapiens with 5 samples.

Results

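Selenoproteins carry selenocysteine, an amino acid encoded by UGA, which on other mRNAs is a stop codon. Footprints on 9 selenoprotein mRNAs and on SECISBP2, the mRNA of the protein that directs their decoding, were followed here in 5 ribosome profiling libraries of HCT116, a cell line from a human colorectal carcinoma. The 10 genes were taken by symbol from a count table of 17297 genes, all 10 were found, and all 10 passed the filter on low counts that left 11991 genes for testing. The WT group held 2 libraries of cells with the Wt genotype. The MUT group held 3 libraries of cells with the genotype eIF6-N106S, in which both alleles of eIF6 carry the N106S substitution after CRISPR/Cas9 editing. eIF6 is a factor on the large ribosomal subunit that helps to build it and stops it from pairing with the small subunit too soon. Per the labels' protocols the edited cells are clones, and the labels do not say which clone each library came from or whether libraries of a group were separate cultures. The p-values thus reflect only library-to-library spread, possibly technical, and the substitution cannot be told apart from anything else that sets the clones apart from their parent.

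In a selenoprotein mRNA a hairpin in the 3′ untranslated region, the SECIS element, is bound by SECISBP2. That protein brings in the elongation factor EEFSEC with the selenocysteine tRNA, so that the ribosome reads UGA as an amino acid instead of ending. Most of the proteins made this way are redox enzymes whose catalytic residue is the selenocysteine, and others sit in the endoplasmic reticulum (ER) membrane or lumen. When selenium is short, cells keep some selenoproteins and give up others, and GPX1 and SELENOW are known among those that are given up early. The counts used here are sums over each gene, so footprints before and after the UGA were not separated, and read-through of the UGA was not measured. Total RNA of these cells was not analysed here, so fewer mRNAs and fewer ribosomes per mRNA cannot be told apart.

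Footprints on 2 of the 10 mRNAs rose in MUT. TXNRD2, the thioredoxin reductase of mitochondria, went from 18.2 ± 3.85 CPM (counts scaled by library size) over the WT libraries (SD, n = 2) to 30.7 ± 2.14 CPM over the MUT libraries (SD, n = 3), a 1.64-fold change. GPX1, the abundant cytosolic glutathione peroxidase, went from 109.9 ± 12.0 to 140.6 ± 12.3 CPM, 1.29-fold. None of the 10 passed the test for a fall, and SECISBP2 itself stood at 90.1 ± 0.244 CPM in WT and 83.4 ± 9.54 CPM in MUT. In edgeR's quasi-likelihood test 22.9% of all tested genes were called in either direction and 10.0% were called higher, so 2 called genes of 10 is a share near that of all genes. The count of 0 falls in edgeR stood beside 1 gene with an unadjusted p under 0.05 and a lower level (SELENOT). DESeq2 and limma-voom also called 0 falls, and 1 fall was called with libraries of the same replicate number as a block (SELENOT) and 1 without WT replicate 2 (SELENOW). The median log2 fold change of the 10 was -0.078, against 0.0024 over all tested genes.

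The promoters of the glutathione peroxidase and thioredoxin reductase pairs are shown because GPX1 and TXNRD2 were called and GPX4 and TXNRD1 were not. Differences within a pair were examined only by the count ratios below. Their exact permutation p cannot go below 0.1 with 2 and 3 libraries, so that test could not pass. A link between promoters and footprints was not tested. Each line is the 250 bases before the outermost annotated start of the gene, 5′ to 3′ on the gene's strand, from RefSeq on GRCh38.p14. The windows are chr3:49358354-49358603 (minus strand) for GPX1, chr19:1103744-1103993 (plus) for GPX4, chr12:104215529-104215778 (plus) for TXNRD1 and chr22:19941819-19942068 (minus) for TXNRD2. Capitals mark matches on either strand to the GC box GGGCGG, the E-box CACGTG, the CCAAT box CCAAT, the antioxidant response element core TGACNNNGC and the TATA box TATAAA; these motifs did not overlap in the windows shown.
GPX1: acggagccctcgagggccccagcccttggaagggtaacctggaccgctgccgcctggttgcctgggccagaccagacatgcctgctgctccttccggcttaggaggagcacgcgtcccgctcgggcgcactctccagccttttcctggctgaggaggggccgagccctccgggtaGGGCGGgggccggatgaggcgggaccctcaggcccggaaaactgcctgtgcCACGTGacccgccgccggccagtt
GPX4: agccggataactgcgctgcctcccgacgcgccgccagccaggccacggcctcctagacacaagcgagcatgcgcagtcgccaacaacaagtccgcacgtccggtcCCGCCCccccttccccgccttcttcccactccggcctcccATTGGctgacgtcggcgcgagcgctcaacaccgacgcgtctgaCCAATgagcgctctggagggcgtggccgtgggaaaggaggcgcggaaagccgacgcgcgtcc
TXNRD1: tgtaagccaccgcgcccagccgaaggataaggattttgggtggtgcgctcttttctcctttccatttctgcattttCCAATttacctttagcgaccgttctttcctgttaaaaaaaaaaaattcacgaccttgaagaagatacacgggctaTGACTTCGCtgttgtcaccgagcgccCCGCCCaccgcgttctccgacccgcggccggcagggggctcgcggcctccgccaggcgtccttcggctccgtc
TXNRD2: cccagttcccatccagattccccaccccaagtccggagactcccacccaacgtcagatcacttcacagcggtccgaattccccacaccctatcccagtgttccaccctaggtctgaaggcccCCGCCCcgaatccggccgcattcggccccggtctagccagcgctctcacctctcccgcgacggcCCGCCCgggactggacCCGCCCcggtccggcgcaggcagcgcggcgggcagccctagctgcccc

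The TXNRD2 window held 3 GC boxes and no other of these motifs. The TXNRD1 window held 1 antioxidant response element core, which starts 99 bases before the annotated start, together with 1 GC box and 1 CCAAT box. GPX4 had 1 GC box and 2 CCAAT boxes, and GPX1 had 1 GC box and 1 E-box. GPX4, TXNRD1 and TXNRD2 also have other annotated starts, whose windows are not shown and can differ. The window of another TXNRD2 start held 1 TATA box and no GC box. Which start these cells use was not measured. Among 34943 annotated promoter windows of the same length, 42.5% held a GC box and 32.0% a CCAAT box. The antioxidant response element core was in 10.9%, a TATA box in 10.8% and the E-box in 6.32%. These windows include starts that are not outermost. Their median GC content was 58%, against 56.4 to 74.8% in the members' outermost windows, so the sets are unlike. The E-box occurred in 3 of the 10 members' windows, and these are shown with up to 10 bases on each side to let the flanks be compared. They lie at chr3:49358362-49358387 (minus strand) for GPX1, chr15:101277486-101277506 (minus) for SELENOS and chr9:89318380-89318405 (plus) for SECISBP2, starting 24, 11 and 110 bases before the annotated starts.
GPX1: ctgcctgtgcCACGTGacccgccgcc
SELENOS: ccgggcgcgcCACGTGtgcgt
SECISBP2: ccactgcctcCACGTGctgcccgcgc

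Of these 3 genes GPX1 and SELENOS had every MUT library above both WT libraries (log2 fold changes of 0.36 and 0.66), as had 25.4% of all tested genes. GPX1 was called and SELENOS was not (adjusted p 0.0168 and 0.1), and SECISBP2 overlapped between the groups (-0.11). TXNRD2, which had the largest fold change of the 10 members (0.72), had no E-box in its outermost window. Differences in fold change between genes with and without an E-box, or among the 3 with one, were not tested. None of the 10 outermost annotated starts began with C, the first base of the 5′ terminal oligopyrimidine (TOP) motif of ribosomal protein mRNAs. A C opening a run of at least 5 pyrimidines, a narrower measure, was found at 4.05% of all annotated starts, so none among 10 is no contrast. The share of all starts that begin with C was not counted. A match of letters is a description of the window and not a measured binding site or transcription start.

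**Figure D1:**
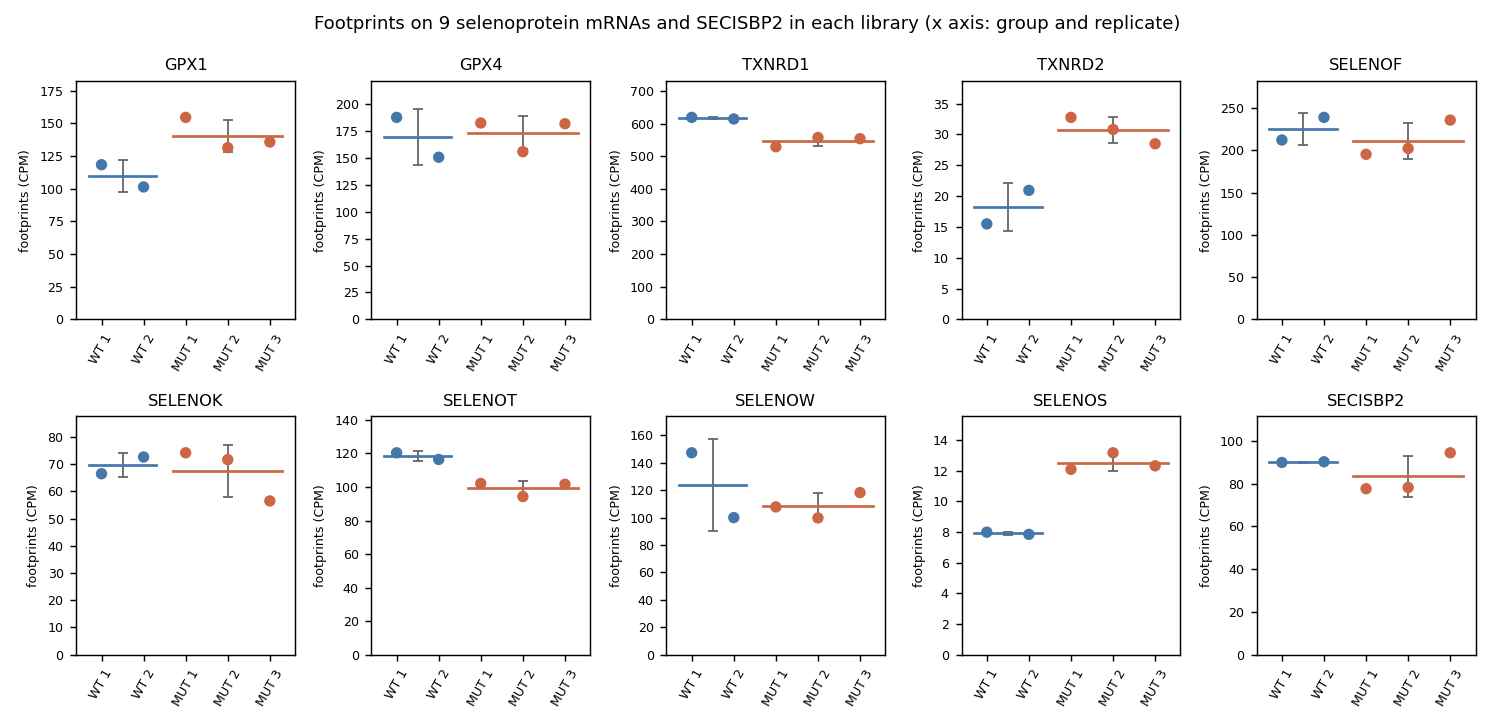
Footprints per gene in each library, in CPM on an axis from 0, with WT libraries in blue and MUT libraries in orange; horizontal lines are group means and grey bars 1 SD. TXNRD2, GPX1 and SELENOS have every MUT library above both WT libraries, TXNRD1 and SELENOT have every MUT library below, and the other 5 genes overlap.

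Among the thioredoxin reductases, which use NADPH to keep thioredoxin reduced, the mitochondrial enzyme TXNRD2 (gene ID 10587, chr22:19875522-19941818 on GRCh38.p14) had 15.5 and 20.9 CPM in WT replicates 1 and 2. In MUT replicates 1, 2 and 3 it had 32.8, 30.8 and 28.5 CPM. All MUT libraries lay above both WT libraries, and the log2 fold change was 0.72 (SE 0.194, edgeR adjusted p = 0.00939). Behind these levels were 31 and 64 counts for the WT libraries and 103, 117 and 111 for the MUT libraries, and the call ended without WT replicate 1, the library with the fewest counts (log2 fold change 0.54, adjusted p 0.106). It held in the other 12 of 13 alternative fits.

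TXNRD1 (gene ID 7296, chr12:104215779-104350307), the cytosolic reductase, had 618.8 and 614.0 CPM in WT and 528.7, 557.2 and 553.5 CPM in MUT. The MUT libraries all lay below the WT libraries, by a log2 fold change of -0.17 (SE 0.093) that did not pass the test (adjusted p 0.184; 95% interval -0.36 to 0.018). No alternative fit called it. For TXNRD3, a reductase known from testis and not among the 10 genes, the values were 25.5 and 31.1 CPM in WT and 26.7, 22.6 and 23.3 CPM in MUT, which overlap (log2 fold change -0.25, SE 0.182, adjusted p 0.349).

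The mitochondrial and cytosolic reductases were also set against each other within each library, where the scaling between libraries drops out. Per 100 TXNRD1 counts there were 2.5 and 3.41 TXNRD2 counts in WT and 6.20, 5.53 and 5.15 in MUT, a mean of 2.95 ± 0.641 against 5.62 ± 0.532 (SD, n = 2 and 3). The ratio was 1.9-fold higher in MUT with no overlap. The two-sided exact permutation p was 0.1, the lowest value possible with 2 and 3 libraries (0.2 after Benjamini-Hochberg adjustment over 4 such ratios). Since every MUT library was above WT for TXNRD2 and below WT for TXNRD1, the lack of overlap and this p were fixed by those levels. They are not separate support. TXNRD3 per 100 TXNRD1 counts was 4.59 ± 0.666 in WT and 4.45 ± 0.533 in MUT, with overlapping libraries (exact permutation p = 0.7). The ratios follow counts per gene and not ribosomes per codon, since coding lengths were not used here, so levels of different genes are not compared.

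The glutathione peroxidases reduce hydroperoxides with glutathione. GPX1 (gene ID 2876, chr3:49357176-49358353) had 118.4 and 101.4 CPM in WT and 154.6, 131.4 and 135.7 CPM in MUT. Every MUT library exceeded both WT libraries, and the log2 fold change was 0.36 (SE 0.108, edgeR adjusted p = 0.0168). The call ended without WT replicate 2 (log2 fold change 0.25, adjusted p 0.263), without MUT replicate 1 (0.29, adjusted p 0.106) and with DESeq2 (adjusted p 0.0623). GPX1 also has 2 annotated pseudogene copies, and the sources used here do not say how reads that fit several places were counted, so its level is uncertain.

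GPX4 (gene ID 2879, chr19:1103994-1106779) reduces lipid hydroperoxides within membranes and protects cells from ferroptosis, a form of death driven by lipid peroxidation. Its libraries overlapped, with 187.8 and 150.7 CPM in WT and 182.6, 155.9 and 181.9 CPM in MUT. The log2 fold change of 0.047 (SE 0.107, adjusted p 0.791) had a 95% interval from -0.17 to 0.27, and it turned to -0.11 without WT replicate 2. Within libraries, GPX1 counts per 100 GPX4 counts were 63.0 and 67.2 in WT and 84.7, 84.3 and 74.6 in MUT. The means, 65.1 ± 2.98 and 81.2 ± 5.70, differed 1.25-fold with no overlap (exact permutation p = 0.1, 0.2 adjusted over the 4 ratios).

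**Figure D2:**
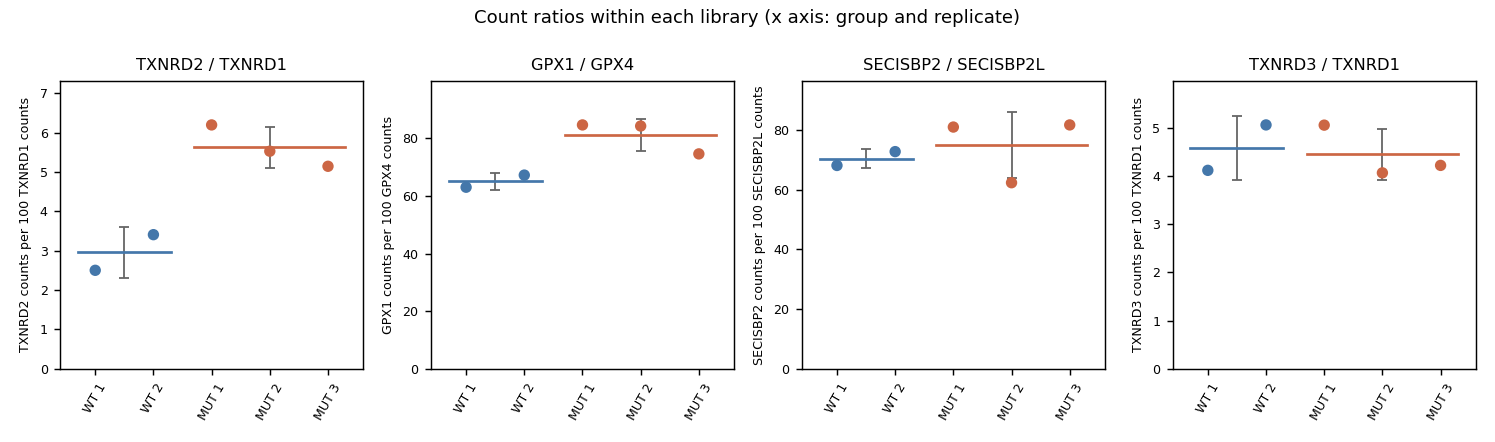
Counts of the named gene per 100 counts of its partner in each library, on axes from 0, with WT in blue and MUT in orange; lines are group means and grey bars 1 SD. TXNRD2 per 100 TXNRD1 counts and GPX1 per 100 GPX4 counts were higher in all MUT libraries, while SECISBP2 per 100 SECISBP2L and TXNRD3 per 100 TXNRD1 overlapped between groups.

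SELENOS, SELENOK, SELENOT and SELENOF belong to the ER. SELENOS (gene ID 55829, chr15:101270809-101277485) is a membrane protein that links the ATPase VCP to the export of misfolded proteins from the ER. It had 7.99 and 7.85 CPM in WT and 12.1, 13.2 and 12.3 CPM in MUT, with no overlap. Its log2 fold change of 0.66 was the second in size among the 10, but its SE was 0.29 and it did not pass (adjusted p 0.1). It was counted 16 and 24 times in the WT libraries and 38, 50 and 48 times in the MUT libraries, the lowest among the members, and no alternative called it (adjusted p 0.0677 to 0.302).

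SELENOK (gene ID 58515, chr3:53884417-53891859), which works with the palmitoyltransferase ZDHHC6 in the ER membrane, had 66.4 and 72.6 CPM in WT and 74.1, 71.6 and 56.4 CPM in MUT. The groups overlapped, and MUT replicate 3 was the lowest of the 5 libraries (log2 fold change -0.057, SE 0.132, adjusted p 0.794). Its value was above 0 in 4 of 13 alternatives, among them 0.015 under scaling by library size alone. SELENOT (gene ID 51714, chr3:150603321-150630436), a thioredoxin-like protein of the ER membrane, had 120.4 and 116.4 CPM in WT and 102.1, 94.3 and 101.6 CPM in MUT. All 3 MUT libraries lay below both WT libraries, and the log2 fold change of -0.25 (SE 0.103) missed the threshold at an adjusted p of 0.0774. With the replicate block it passed (-0.27, adjusted p 0.0278). MUT replicate 3 has no WT library of its number, so that fit compares the groups through the other libraries. Leaving that library out without a block gave -0.27 too, which did not pass (adjusted p 0.0846). SELENOK has 3 and SELENOT 2 annotated pseudogene copies, so their levels carry the same doubt as that of GPX1.

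SELENOF (gene ID 9403, chr1:86862445-86914577), which binds the folding sensor UGGT in the ER lumen, had 212.3 and 239.0 CPM in WT and 195.3, 202.2 and 235.8 CPM in MUT. These overlapped (log2 fold change -0.099, SE 0.101, adjusted p 0.51). Its value lay between -0.19 and 0.0012 over the alternatives.

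SELENOW (gene ID 6415, chr19:47778703-47784682) is a small cytosolic selenoprotein of the thioredoxin-like family. The WT libraries were far apart at 147.3 and 100.0 CPM, and the MUT libraries at 107.8, 99.8 and 118.3 CPM lay around the lower of them. The log2 fold change of -0.16 (SE 0.126, adjusted p 0.383) became 0.11 when WT replicate 1 was left out and -0.43 without WT replicate 2, where it passed the threshold (adjusted p 0.0491). The direction for SELENOW thus rested on which WT library was kept. It has 1 annotated pseudogene copy, so its level carries the doubt given for GPX1.

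SECISBP2 (gene ID 79048, chr9:89318500-89367117), the SECIS-binding decoding factor, had 89.9 and 90.2 CPM in WT and 77.6, 78.2 and 94.4 CPM in MUT. Of the MUT libraries 2 lay below the WT libraries and 1 above. The log2 fold change of -0.11 (SE 0.117, adjusted p 0.541) had a 95% interval from -0.35 to 0.13, and 0 of 13 alternative fits called it. It shares 6331 bases on the map with SEMA4D, named for that overlap, which had 18.5 and 21.3 CPM in WT and 15.0, 12.1 and 17.7 CPM in MUT (adjusted p 0.185), and the sources used here do not say whether counting was by strand. SECISBP2L, a related protein that also binds SECIS elements, was not called either (log2 fold change -0.18, SE 0.111, adjusted p 0.256). SECISBP2 counts per 100 SECISBP2L counts were 70.5 ± 3.28 in WT and 75.1 ± 11.0 in MUT (exact permutation p = 0.6).

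Across the 10 genes the groups did not overlap for 5, where 50.7% of all tested genes did not overlap. All MUT libraries were above WT for 3 members (25.4% of all tested genes) and below for 2 (25.3%). Summed over the 10 genes, footprints came to 1584.7 and 1513.2 CPM in WT and 1467.7, 1434.6 and 1518.5 CPM in MUT, with MUT replicate 3 between the WT libraries. The members thus had fold changes on both sides of 0, and their sum overlapped between the groups.

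**Figure D3:**
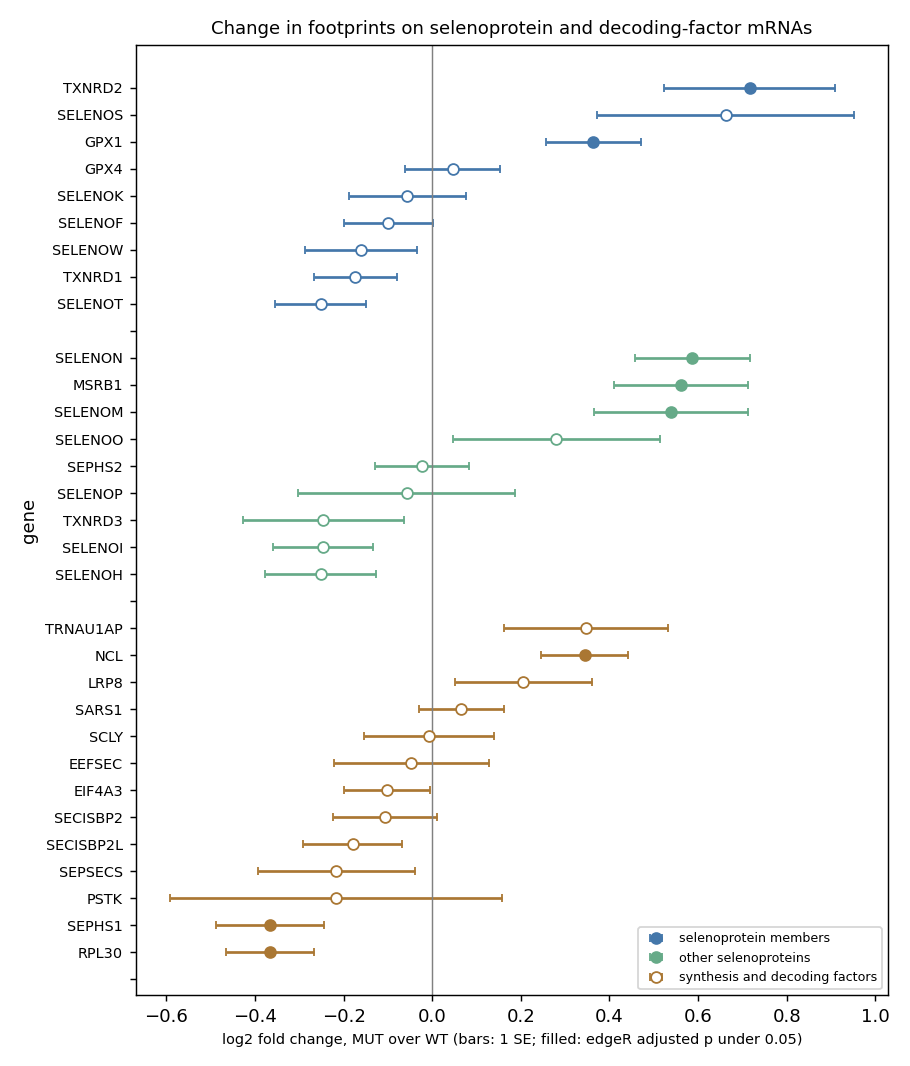
Log2 fold change in footprints, MUT over WT, for the tested selenoproteins and for genes tied to selenocysteine synthesis, decoding or selenium handling. Bars are 1 SE and filled points passed an adjusted p of 0.05 in edgeR. TXNRD2 and GPX1 among the members and SELENON, MSRB1 and SELENOM among the other selenoproteins are filled on the right, as is the decoding-related NCL, and SEPHS1 and RPL30 are filled on the left.

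The other 16 human selenoprotein genes were read beside the members. Of these, 14 were in the table and 9 passed the count filter. Of the 9, 3 rose and 0 fell, against 10.0% called higher, 12.9% lower and 22.9% either way of all tested genes. SELENON, an ER protein mutated in congenital muscle disease, had 56.4 and 53.9 CPM in WT and 84.6, 72.4 and 91.1 CPM in MUT (log2 fold change 0.59, SE 0.13, adjusted p 0.00226). MSRB1, a reductase of oxidised methionine, had 41.5 and 31.4 CPM in WT and 55.3, 52.7 and 50.5 CPM in MUT (log2 fold change 0.56, SE 0.151, adjusted p 0.00899). SELENOM, an ER protein related to SELENOF, had 29.5 and 24.5 CPM in WT and 41.4, 33.4 and 41.6 CPM in MUT (log2 fold change 0.54, SE 0.173, adjusted p 0.0263). Of the 9 tested genes 4 had every MUT library above both WT libraries and 2 had every one below, beside 25.4% and 25.3% of all tested genes. The 4 were SELENOO, which was not called, and these 3 called genes.

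None of these 3 was called without WT replicate 2, where the adjusted p was 0.0584 for SELENON, 0.234 for MSRB1 (log2 fold change 0.35) and 0.278 for SELENOM. SELENOM also lost its call with DESeq2 (0.106) and without WT replicate 1 (0.05003), MUT replicate 1 (0.0939) or MUT replicate 3 (0.0708). The 6 tested genes that did not pass were SELENOO, SEPHS2, SELENOP, TXNRD3, SELENOI and SELENOH, with log2 fold changes from 0.28 to -0.25. At an unadjusted p under 0.05, 1 of the 9 (SELENOI) was lower, and DESeq2 and limma-voom called 0 lower. The 5 genes measured but not tested, GPX2, GPX3, DIO1, DIO2 and DIO3, stood at a mean of at most 1.55 CPM in either group.

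Taking all 25 selenoprotein genes, 18 were tested. Of these 5 rose and 0 fell in edgeR, beside 10.0% called higher, 12.9% lower and 22.9% either way of all tested genes. At an unadjusted p under 0.05, 2 genes (SELENOT and SELENOI) were lower. Falls numbered 0 in DESeq2 and limma-voom, 2 with the replicate block (the same 2 genes) and 1 without WT replicate 2 (SELENOW). The 5 that rose were TXNRD2, GPX1, SELENON, MSRB1 and SELENOM. Their number was 3 with DESeq2, 3 without WT replicate 1, 3 without MUT replicate 1 and 1 without WT replicate 2. The median log2 fold change over the 18 was -0.04, beside 0.0024 over all tested genes.

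Of 13 genes tied to selenocysteine synthesis, decoding or selenium handling, 1 rose, 2 fell and 10 did not pass, and the counts at an unadjusted p were the same. These 3 calls are a share near the 22.9% called among all tested genes. NCL (nucleolin), an abundant nucleolar protein that also binds SECIS elements, rose from 505.6 ± 34.9 to 642.8 ± 36.4 CPM (log2 fold change 0.34, SE 0.098, adjusted p 0.0132). RPL30, a large-subunit ribosomal protein that binds SECIS elements as well, fell from 523.9 ± 75.5 to 405.1 ± 6.48 CPM (log2 fold change -0.37, SE 0.0988, adjusted p 0.00926). SEPHS1, a relative of the selenophosphate synthetase SEPHS2, fell from 106.9 ± 16.2 to 82.4 ± 10.2 CPM (log2 fold change -0.37, SE 0.122, adjusted p 0.0317).

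These 3 calls were lost in some fits. Without WT replicate 1 the adjusted p was 0.0798 for NCL, 0.125 for RPL30 and 0.331 for SEPHS1, and the value of RPL30 was -0.22 and that of SEPHS1 -0.23. NCL also lost its call without MUT replicate 2 (0.0596) and RPL30 without MUT replicate 1 (0.0659). SEPHS1 lost it under upper-quartile scaling (0.0593), library size alone (0.0826) and DESeq2 (0.102), and without MUT replicate 2 (0.0601) or MUT replicate 3 (0.105). The dedicated factors were not called: EEFSEC, which delivers the selenocysteine tRNA, had a log2 fold change of -0.047 (SE 0.175, adjusted p 0.876), the enzyme SEPSECS, which completes selenocysteine on its tRNA, -0.22 (0.177, adjusted p 0.402), and SEPHS2, which makes the selenium donor and is itself a selenoprotein, -0.023 (0.106, adjusted p 0.904). These 3 values have no settled direction: SEPSECS turned to 0.17 without WT replicate 2, EEFSEC to 0.042 and SEPHS2 to 0.042 without MUT replicate 3, and EEFSEC to 0.025 and SEPHS2 to 0.050 under scaling by library size alone. PSTK, the kinase before SEPSECS, was at 7.68 ± 1.15 CPM in WT and 6.4 ± 2.07 CPM in MUT (adjusted p 0.715).

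A UGA that is not decoded ends translation, and an mRNA that ends early can be removed by nonsense-mediated decay. Of 13 genes of termination and this decay pathway 3 rose and 0 fell in edgeR (0 lower at an unadjusted p, and 0 in DESeq2 and limma-voom). Of all tested genes 10.0% were called higher, 12.9% lower and 22.9% in either direction. SMG5 rose from 68.8 ± 7.18 to 103.6 ± 6.59 CPM (log2 fold change 0.60, adjusted p 0.000773), SMG6, the endonuclease of the pathway, from 28.1 ± 3.72 to 44.2 ± 6.39 CPM (0.64, adjusted p 0.00807) and UPF1, its central helicase, from 78.5 ± 7.86 to 106.8 ± 11.6 CPM (0.43, adjusted p 0.0113). SMG5 was called in all 13 alternatives. Without WT replicate 1 the calls of SMG6 (0.095) and UPF1 (0.133) ended, as did that of UPF1 without MUT replicate 1 (0.062). The release factor ETF1, which reads UGA as a stop and was named after its value was seen, had a log2 fold change of -0.038 (SE 0.0917, adjusted p 0.801).

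Of 18 tested thiol redox genes, which work with the members' enzymes or stand in for them, 1 rose and 4 fell, against 22.9% of all tested genes called in either direction. The peroxiredoxins PRDX1 and PRDX3, which remove peroxides using thioredoxin in the cytosol and in mitochondria, fell from 782.4 ± 3.25 to 608.4 ± 14.3 CPM and from 528.0 ± 24.5 to 414.2 ± 3.98 CPM (log2 fold changes -0.36 and -0.35, adjusted p 0.00659 and 0.00807). PRDX1 was called in all 13 alternatives, and PRDX3 lost its call without MUT replicate 1 (0.0551). GSR, which regenerates glutathione for the glutathione peroxidases, fell by 0.29 on the log2 scale (adjusted p 0.0225), and TXN, the thioredoxin that TXNRD1 reduces and which was named after its value was seen, by 0.30 (adjusted p 0.0275). GSR was called in 8 of 13 alternatives and TXN in 6, and both calls ended under upper-quartile scaling (0.0531 and 0.0594), under scaling by library size alone (0.0728 and 0.0828), without WT replicate 1 (0.105 and 0.095) and without MUT replicate 1 (0.104 and 0.0875). GSR also lost its call without MUT replicate 2 (0.0695), and TXN without WT replicate 2 (0.116), without MUT replicate 3 (0.118) and with DESeq2 (0.0558). GCLM, a subunit of the enzyme that starts glutathione synthesis, rose 1.28-fold (adjusted p 0.0132), a call that ended without WT replicate 1 (0.103) or WT replicate 2 (0.0557). TXN2, the mitochondrial thioredoxin that TXNRD2 reduces, also named after its value was seen, was not called (log2 fold change 0.15, SE 0.0957, adjusted p 0.285).

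Of 10 tested ER partners of SELENOF, SELENOK and SELENOS 2 rose and 1 fell, where 22.9% of all tested genes were called in either direction. VCP, the ATPase that SELENOS binds, had 137.3 and 178.8 CPM in WT and 226.8, 253.8 and 197.8 CPM in MUT (log2 fold change 0.50, SE 0.116, adjusted p 0.0031), with no overlap. That call ended without WT replicate 1 (log2 fold change 0.33, adjusted p 0.103). UBXN6, a VCP cofactor, rose 1.27-fold (adjusted p 0.0325) and SEL1L, a scaffold of ER-associated degradation, fell 1.38-fold (adjusted p 0.0243). UBXN6 was called in 8 of 13 alternatives, and not with DESeq2 (0.124) or without WT replicate 1 (0.057), WT replicate 2 (0.268), MUT replicate 1 (0.0879) or MUT replicate 3 (0.0619). SEL1L was called in 9, and not with library size only (0.0535), with DESeq2 (0.0915) or without WT replicate 1 (0.229) or MUT replicate 1 (0.0919).

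Around GPX4, 1 of 10 genes tied to ferroptosis rose and 2 fell, again beside 22.9% called over all tested genes. AIFM2 (FSP1), which limits lipid peroxidation without glutathione, rose from 32.1 ± 3.33 to 50.6 ± 4.58 CPM (log2 fold change 0.67, SE 0.154, adjusted p 0.00308). ACSL4, which loads polyunsaturated fatty acids for membrane lipids, fell from 128.1 ± 7.45 to 95.7 ± 11.3 CPM (log2 fold change -0.43, SE 0.111, adjusted p 0.00697). Both calls ended without WT replicate 2 (0.091 and 0.144). GCH1, which makes tetrahydrobiopterin, fell by 0.37 on the log2 scale (adjusted p 0.0375) and was called in 3 of 13 alternatives, with an adjusted p of up to 0.185 (without WT replicate 1). It lost its call in each of the 5 fits that left out a library.

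**Figure D4:**
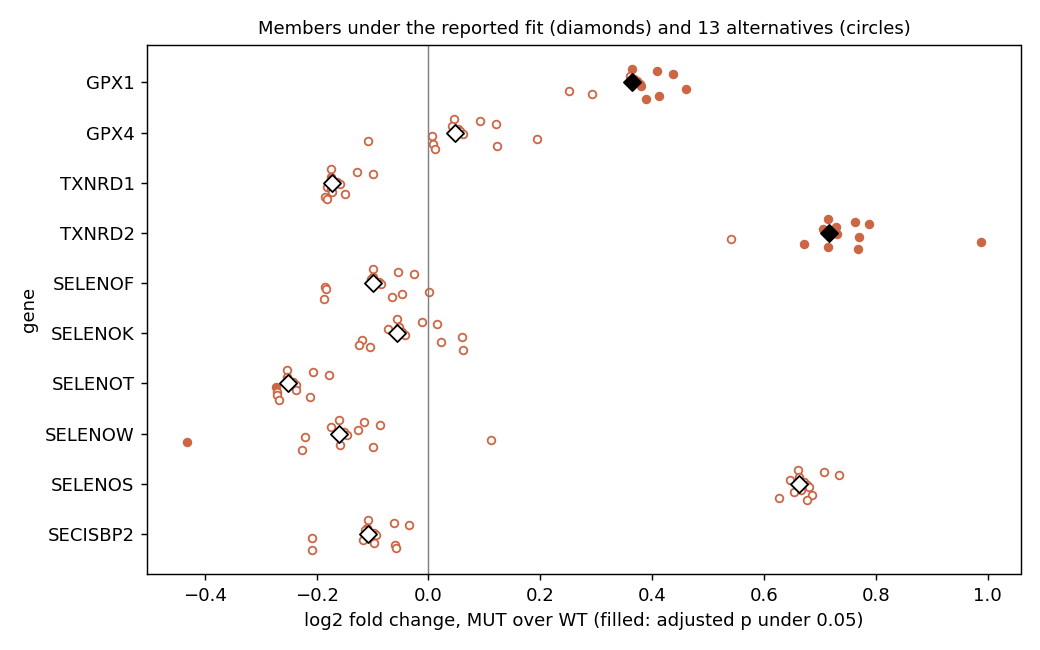
Log2 fold change of each of the 10 genes, MUT over WT, in the reported fit (diamonds) and in 13 alternative fits (circles); filled marks passed an adjusted p of 0.05. TXNRD2, GPX1 and SELENOS stay right of 0 and TXNRD1, SELENOT and SECISBP2 left of 0 in all of them, while GPX4, SELENOF, SELENOK and SELENOW each cross 0 in at least 1.

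The libraries held from 2095217 counts (WT replicate 1) to 3821176 counts (MUT replicate 3). Of all tested genes, 1203 were called higher and 1544 lower in MUT, with 1558 and 1209 under upper-quartile scaling and 1756 and 1040 under scaling by library size alone. EIF6 had 177.8 ± 9.16 CPM in WT and 157.4 ± 10.7 CPM in MUT and was not called (adjusted p 0.215), and a substitution need not change a footprint count, so this does not check the labels. Of 6 colon epithelial markers all were measured, at a summed 1068.2 to 1159.2 CPM in WT and 1130.8 to 1435.1 CPM in MUT. Of these KRT8 (1.30-fold) and KRT19 (1.22-fold) were called higher, EPCAM (1.41-fold, adjusted p 0.0087) and CDH1 (1.87-fold, adjusted p 0.00741) were called lower, and KRT18 and CLDN4 were not called. Of 12 markers of blood, stromal, endothelial and other cells 9 were measured, at a summed 13.1 to 23.0 CPM in WT and 19.2 to 21.1 CPM in MUT.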

How the data were processed

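Ribosome-protected fragments of 25 to 35 nucleotides were taken after MNase digestion from the single-ribosome fraction of a sucrose gradient, per the labels' protocols. MNase prefers A and T at its cut sites, so recovery depends on base composition. The authors deposited raw counts per gene, not normalized. The submitters' processing notes name hg38 as the build, STAR 2.5.2b, cutadapt 4.6, DESeq2 1.42.0 and FastQC 0.12.1. The counter, its annotation, the part of a gene it counted and its use of strand: not given in the sources used here. Molecular identifiers are not mentioned either, so reads may not be independent molecules.

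Columns were matched to samples by the codes in the header. In R 4.3.3 with edgeR 4.0.16, filterByExpr removed genes with low counts (minimum count 10, minimum total 15), libraries were scaled by TMM (factors 0.959 to 1.03), and MUT was compared with WT over all 5 libraries by the quasi-likelihood F test, with Benjamini-Hochberg adjustment over all tested genes and 0.05 as threshold. Fold changes (log2) are of MUT over WT, their SE and 95% intervals come from the F statistic, and CPM use the scaled library sizes. No pair of libraries agreed within counting noise (chi-square per gene from 1.9 to 8.01). Alternatives were RLE, upper-quartile and library-size scaling, DESeq2 1.42.0, limma-voom (limma 3.58.1) and no count filter. Others were a strict filter (a mean of 10 CPM, with 30 counts in 2 or more libraries), a replicate block and leaving out each library. MUT replicate 3 has no WT library of its number, so the block fit compares the groups through the other libraries. The members and gene lists were chosen with earlier results of these data known, so counts over a list are set beside those of all genes with no test of the list. Named genes were all members, any gene of the other selenoprotein and decoding lists, and at most 4 called genes of lowest p in each other list. Levels per coding length were planned and not computed, as no coding lengths were used here. Members were matched by symbol to RefSeq on GRCh38.p14, 10 of 10.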

Additional observations from a re-analysis of the deposited data

How the results depend on the processing

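Among the 10 selenoprotein and SECISBP2 genes, 2 rose and 0 fell in the reported fit. With DESeq2 1 rose, and over the fits that left out each library 1 to 2 rose and 0 to 1 fell, where the fall was SELENOW without WT replicate 2. The labels share replicate numbers 1 and 2 between groups but nothing says that they pair the libraries, and same-numbered deviations from the group means correlated at 0.0797 and 0.146 across genes, with only 2 pairs. With the replicate block 2 rose and 1 fell (SELENOT, adjusted p 0.0278), and SELENOI (0.039) was called lower among the other selenoproteins. That block leaves MUT replicate 3 without a WT library, so it compares the groups through the other libraries. Without MUT replicate 3 and with no block, SELENOT (0.0846) and SELENOI (0.0854) were not called. The median of the 10 was -0.0057 with library size only, where the median of all genes was 0.075, and ran from -0.085 to -0.0021 over the fits that left out each library. Over the whole table DESeq2 called 609 higher and 948 lower genes, and leaving out each library gave 509 to 1089 higher and 732 to 1339 lower. The remaining alternatives kept the members' counts of 2 and 0. SELENOS and TXNRD2 had the fewest counts of the members, with 16 and 31 in the smallest library. The cause of these differences was not tested.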
